A study of Mus musculus with 401 samples.

Results

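Pax6, Trim6 and Zfp521 were the 3 genes examined, out of 43633 gene identifiers in both count tables together. They were chosen from the measured values. The genes ranked differed between oocytes of calorie-restricted (CR) mice and of mice fed ad libitum at 9 months (edgeR, false discovery rate of 5%). They also had a mean of at least 8 CPM (counts scaled to a library total of 1e+06) over the libraries of both groups together. Out of 2780 such genes that were higher in CR, the 3 ranked 1, 2 and 3 by rise. Their means in oocytes of mice fed ad libitum were below 8 CPM (0.586, 3.33 and 4.96), so each passed that level through the CR oocytes. Their levels in that comparison are therefore a description, with no test. The gene just outside was AC134468.1, with a log2 fold change of 2.27, against 2.34 for Zfp521, the last of the 3. What the choice did not use were oocytes of the other ages, a second set of mice, oocytes obtained without hyperovulation and the cumulus cells of the same follicles.

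Single oocytes at the germinal vesicle stage, and the pool of cumulus cells around each of them, were taken from fully grown follicles of B6D2F1 (C57BL/6 x DBA/2) female mice and profiled by RamDA-seq, a total RNA method that reads transcripts along their whole length and carries no molecular identifiers. The first set held oocytes of mice fed ad libitum at 2 months (Young, 16 oocytes under 2 mouse labels), 9 months (Middle, 14 oocytes of 4 mice) and 14 months (Old, 16 oocytes under 2 labels, one of which, Old1_2, joins 2 mice), and of mice at 9 months on calorie restriction (CR, 27 oocytes of 3 mice). The second set held only mice fed ad libitum, with 24 oocytes of 5 mice at 2 months, 39 of 8 mice at 4 months, 16 of 4 mice at 9 months, 16 of 5 mice at 14 months and, left without hyperovulation, 32 of 8 mice at 2 months. All groups but the last had hyperovulation, an injection that drives many follicles to grow. It was equine chorionic gonadotropin or CARD HyperOva, and which mice got which is not given in the sources used here. CR mice were housed singly and fed once a day, with food cut in steps from early adulthood and kept low to 9 months. The housing of the others is not given in the sources used here. CR complexes have their own label series, and whether their libraries were made in a separate batch is not given. Diet, housing, feeding schedule and any such batch thus cannot be told apart. Matching cumulus libraries numbered 15 to 40 per group. The 2 sets were counted in separate tables, so values of one are set beside those of the other without a test.

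Libraries of a mouse are not independent animals, and p-values below measure the spread between libraries. CR oocytes were sequenced more deeply, with a median total of 3578882 counts against 2332126 in Middle oocytes. Oocyte markers were high in all groups, with median sums over 14 genes of 17510 CPM or more. The sum of 14 cumulus and granulosa markers had medians of 209.1 CPM in CR and 262.6 CPM in Middle oocytes, and Middle reached 3059 CPM against 1968 CPM in CR. One Middle complex, whose oocyte library correlated with the mean cumulus profile at 0.938 and with the mean oocyte profile at 0.756, was left out, as the study did. With it kept, the log2 differences between CR and Middle oocytes were 4.92 for Pax6, 3.12 for Trim6 and 2.47 for Zfp521.

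Pax6 encodes a transcription factor with a paired domain and a homeodomain, known for its part in the making of the eye, the brain and the islets of the pancreas. Trim6 encodes an E3 ubiquitin ligase of the tripartite motif family, known in mouse embryonic stem cells, where it acts on the MYC protein, and in interferon signalling through the kinase IKK epsilon, encoded by Ikbke. Zfp521 encodes a protein of many zinc fingers that works with EBF factors and the NuRD chromatin complex in blood, bone and nerve cell precursors. Fully grown oocytes make little new RNA and live largely on stored transcripts. On GRCm38, with the GENCODE vM21 annotation, Pax6 (ENSMUSG00000027168) lies on the plus strand at chr2:105668900-105697364 and Trim6 (ENSMUSG00000072244) on the plus strand at chr7:104218793-104235152.

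Promoters are shown for the 2 members with a window in RefSeq, so that the letters upstream of both can be compared. Each is the 250 bases before a RefSeq start on GRCm38.p6, plus strand, 5′ to 3′, at chr2:105668646-105668895 for Pax6 and chr7:104218545-104218794 for Trim6, with motif matches in capitals:
Pax6: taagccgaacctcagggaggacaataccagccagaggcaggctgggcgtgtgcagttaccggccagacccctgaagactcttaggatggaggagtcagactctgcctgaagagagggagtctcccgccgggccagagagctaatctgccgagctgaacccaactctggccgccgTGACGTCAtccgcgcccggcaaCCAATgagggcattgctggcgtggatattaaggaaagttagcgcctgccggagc
Trim6: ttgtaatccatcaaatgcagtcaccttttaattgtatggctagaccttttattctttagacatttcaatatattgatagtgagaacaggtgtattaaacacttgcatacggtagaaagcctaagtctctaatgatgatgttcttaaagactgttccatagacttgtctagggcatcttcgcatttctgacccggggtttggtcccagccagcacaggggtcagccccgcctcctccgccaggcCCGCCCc

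Both strands were searched for the cAMP response element (tgacgtca), a FOXO site (gtaaaca), the CCAAT box (ccaat), the GC box (gggcgg) and the E-box (cacgtg). The Pax6 window held a cAMP response element that begins 76 bases before the start and a CCAAT box that begins 54 bases before it. Of 32851 windows of the same length over all genes, 1.55% held the first and 33.9% the second. The Trim6 window held a GC box, present in 32.7% of the windows, that begins 7 bases before the start. The FOXO site (3.17% of the windows) and the E-box (6.02%) had no match in either, and a second Pax6 start at chr2:105682213-105682462 had no match of any motif. The 2 printed windows shared no motif.

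Pax6 went from near absent to readily counted in CR oocytes. It had 0 to 4 counts in each Middle oocyte and 34 to 104 in each CR oocyte. In CPM, Middle oocytes ranged from 0 to 2.03 (median 0.440) and CR oocytes from 9.60 to 25.8 (median 16.6). The groups did not overlap, for a gene chosen as the largest rise of this comparison. The share of all genes whose groups separate in this way is not given here. Means were 0.586 ± 0.601 (SD, n = 14) and 16.1 ± 4.64 CPM (SD, n = 27), a log2 fold change of 4.79 (SE 0.26). Over all libraries of a group, 1574 counts in CR stood against 18 in Middle, a ratio of 29 after scaling to the totals, with a 95% exact counting interval of 18.3 to 49.1. That interval covers counting error only and does not allow for the choice of the gene by its rise. A library with 0 counts allowed up to 3 counts, so the low levels of single libraries are known only roughly.

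Each CR mouse carried the high level. The 3 oocytes of mouse CR1 had 18.8, 20 and 23.2 CPM, the 11 of CR2 ranged from 9.60 to 18.3 and the 13 of CR3 from 9.82 to 25.8. Means per mouse were 20.6, 13.3 and 17.3 CPM. Among the 38 other mouse labels of both sets the highest mean was 1.28 CPM, in a mouse at 2 months without hyperovulation. Over single oocytes, the highest of the other 173 was 4.09 CPM, and 27 of 27 CR oocytes lay above it. The CR values chose the gene, so this separation is a description, and the share of all genes that separate so is not given here.

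Trim6 was measurable in most oocytes and highest in CR. Middle oocytes ranged from 0 to 15.1 CPM (median 2.30), and CR oocytes from 8.37 to 76.3 CPM (median 32). One Middle oocyte lay within the CR range. Means were 3.33 ± 4.10 (SD, n = 14) and 30.8 ± 14.5 CPM (SD, n = 27), a log2 fold change of 3.26 (SE 0.33), with 3010 against 106 counts. The spread among CR oocytes was the widest of the 3 genes, with a coefficient of variation of 47.2%, against 28.9% for Pax6 and 30.9% for Zfp521.

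Single oocytes of other groups reached the CR range of Trim6. The highest of the 173 had 41.6 CPM, in a Young mouse, 31 of them were at or above the lowest CR oocyte, and 5 of 27 CR oocytes were above all of them. Means per CR mouse were 39, 28.8 and 30.6 CPM for CR1, CR2 and CR3, against 12.9 CPM in the highest of the other 38 labels. The mouse means thus did not overlap, while the oocytes did. The CR values chose this gene too, so the gap between mouse means is a description. The share of all genes whose mouse means separate in this way is not given here.

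Zfp521 (ENSMUSG00000024420, on the minus strand at chr18:13687013-13972787) had a count in 13 of 14 Middle oocytes, against 11 for Trim6 and 10 for Pax6. Middle oocytes ranged from 0 to 13.7 CPM (median 2.96) and CR oocytes from 9.46 to 40.3 CPM (median 25.7). Of the Middle oocytes, 3 were at or above the lowest CR oocyte. Means were 4.96 ± 4.34 (SD, n = 14) and 24.4 ± 7.54 CPM (SD, n = 27), a log2 fold change of 2.34 (SE 0.26), with 2364 against 161 counts. Of the other 173 oocytes, 46 were at or above the lowest CR oocyte, and 20 of 27 CR oocytes lay above the highest, an Old oocyte at 21.2 CPM. Mouse means were 23.8, 21.9 and 26.7 CPM in CR1, CR2 and CR3. The highest other mouse mean, 17.8 CPM, came from 2 oocytes of mouse 14mo39 in the second set.

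**Figure D1:**
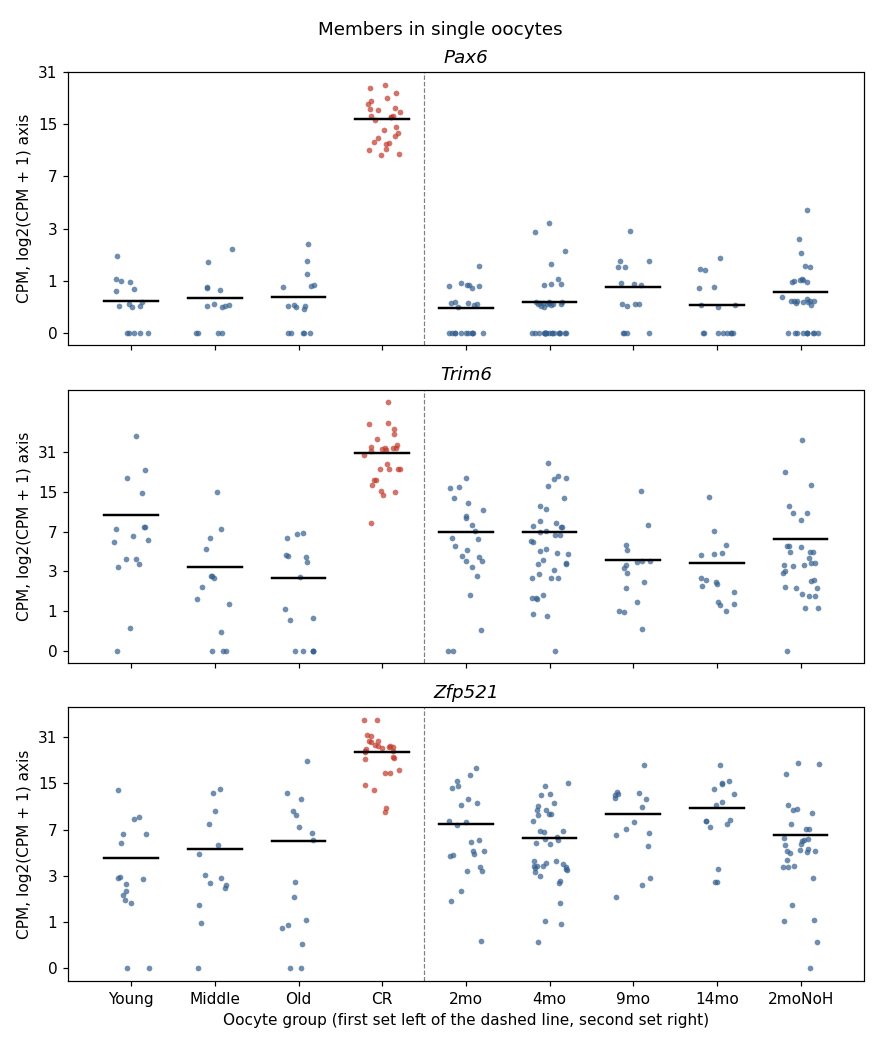
CPM of Pax6, Trim6 and Zfp521 in each oocyte library (points; CR in red) on a log2(CPM + 1) axis, with black bars for group means and the second set to the right of the dashed line. For Pax6 the CR points, from 9.60 to 25.8 CPM, lie above all others, whose highest is 4.09 CPM, while for Trim6 and Zfp521 31 and 46 of the other oocytes reach the lowest CR point. The CR points are among the values that chose the members.

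Of the genes tested between CR and Middle oocytes, 30% passed the threshold and 15.8% were higher in CR, so a difference in this comparison is common. The median log2 fold change over all 25276 genes was 0.00. With CR counts thinned to the Middle median total, the log2 fold changes were 4.80, 3.22 and 2.34 for Pax6, Trim6 and Zfp521. With the cumulus marker sum as a covariate they were 4.80, 3.36 and 2.34. Both runs reuse the libraries that chose the members.

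Between genes, levels were compared per kilobase, as RPKM from the counts. In CR oocytes Trim6 had the highest level, 6.30 ± 2.97 RPKM, then Zfp521 with 3.97 ± 1.23 and Pax6 with 1.37 ± 0.397 (SD, n = 27). In Middle oocytes Zfp521 had 0.807 ± 0.706, Trim6 0.681 ± 0.838 and Pax6 0.0501 ± 0.0514 RPKM (SD, n = 14). Zfp521 and Trim6 did not differ beyond their spread in Middle oocytes.

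Within the 27 CR oocytes the members did not vary together closely. Pearson's r of log2(CPM + 1) was 0.03 between Pax6 and Trim6, 0.02 between Pax6 and Zfp521 and 0.30 between Trim6 and Zfp521. With the total count r was 0.17, 0.03 and -0.14 for Pax6, Trim6 and Zfp521, and with the cumulus marker sum 0.28, -0.07 and -0.04. These are descriptions over oocytes of 3 mice.

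Across the ages of mice fed ad libitum, which the choice of members did not use, Trim6 was the one member to pass a test, and in one comparison only. In the first set it fell, at 9.67 ± 10.6 CPM in Young and 2.59 ± 2.58 CPM in Old oocytes (SD, n = 16 each), with a log2 fold change of -1.93 (SE 0.53, edgeR adjusted p = 0.0291). Young oocytes ranged from 0 to 41.6 CPM (median 6.17) and Old oocytes from 0 to 6.79 (median 1.86), so the groups overlapped. In this comparison 7.39% of 23100 genes passed the threshold and 2.99% were lower in Old. The share past the threshold in either direction was 18.4% without Old3, 0.0266% without Young1 and 0 without Old1_2 or Young2. Means per label were 6.81 and 10.6 CPM for the Young and 1.87 and 4.17 CPM for the Old.

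The fall of Trim6 passed the threshold in DESeq2 too, and without mouse Old3, but not under several other treatments of the data. Summed per mouse label it was -1.73 (adjusted p = 0.553). The sum of cumulus and granulosa markers was higher in Old than in Young oocytes, with medians of 532.6 and 141.4 CPM, and with that sum as a covariate the log2 fold change was -1.15 (adjusted p = 0.438). Without Old1_2 it was -1.22 (adjusted p = 0.798), without Young1 -2.06 (adjusted p = 0.0907) and without Young2 -1.51 (adjusted p = 0.335), all by edgeR.

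In the second set, Trim6 was lower at 9 and 14 months than at 2 months without passing the threshold. Oocytes at 2 months ranged from 0 to 19.4 CPM (median 5.67), those at 4 months from 0 to 25.6 (median 4.95), those at 9 months from 0.466 to 15.4 (median 3.37) and those at 14 months from 1.01 to 13.7 (median 2.37). All 4 ranges overlapped. Against 2 months, the log2 fold change was -0.02 at 4 months (95% interval -0.58 to 0.54, edgeR adjusted p = 0.998), -0.84 at 9 months (-1.54 to -0.14, adjusted p = 0.419) and -0.96 at 14 months (-1.64 to -0.28, adjusted p = 0.176). The unadjusted p-values of the last 2 edgeR tests were 0.0223 and 0.00836. Of all genes, 0.0126% passed the threshold at 4 months, 0.16% at 9 months and 1.14% at 14 months.

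Pax6 stayed at the edge of detection in all oocytes of mice fed ad libitum. Group means ran from 0.396 CPM at 2 months in the second set to 0.839 CPM at 9 months, and 50% to 75% of the oocytes of a group had a count. The log2 fold change from Young to Old was 0.17 (95% interval -0.88 to 1.22, edgeR adjusted p = 0.870). Against 2 months in the second set it was 0.30 at 4 months (-0.53 to 1.12, adjusted p = 0.961), 0.94 at 9 months (0.07 to 1.80, p = 0.0388, adjusted p = 0.483) and 0.17 at 14 months (-0.81 to 1.15, adjusted p = 0.930), again by edgeR. A count of 0 allowed 1.055 to 5.36 CPM in Young oocytes, above their mean of 0.538 CPM. In CR oocytes it allowed 0.661 to 1.09 CPM, well below their mean of 16.1 CPM.

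Zfp521 was present in nearly all oocytes of the second set, with a count in 24 of 24 at 2 months, 39 of 39 at 4 months, 16 of 16 at 9 months and 16 of 16 at 14 months. Group means were 7.74 ± 5.20, 6.04 ± 3.77, 9.06 ± 4.86 and 10.1 ± 5.0 CPM in that order (SD). Against 2 months, the log2 fold change was -0.35 at 4 months (95% interval -0.80 to 0.09, edgeR adjusted p = 0.830), 0.21 at 9 months (-0.31 to 0.74, adjusted p = 0.878) and 0.37 at 14 months (-0.14 to 0.87, adjusted p = 0.589). From Young to Old in the first set it was 0.37 (-0.62 to 1.36, adjusted p = 0.671), at 4.24 ± 3.64 and 5.73 ± 6.0 CPM (SD, n = 16 each). None of these passed the threshold, at an adjusted or unadjusted p, nor in DESeq2.

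**Figure D2:**
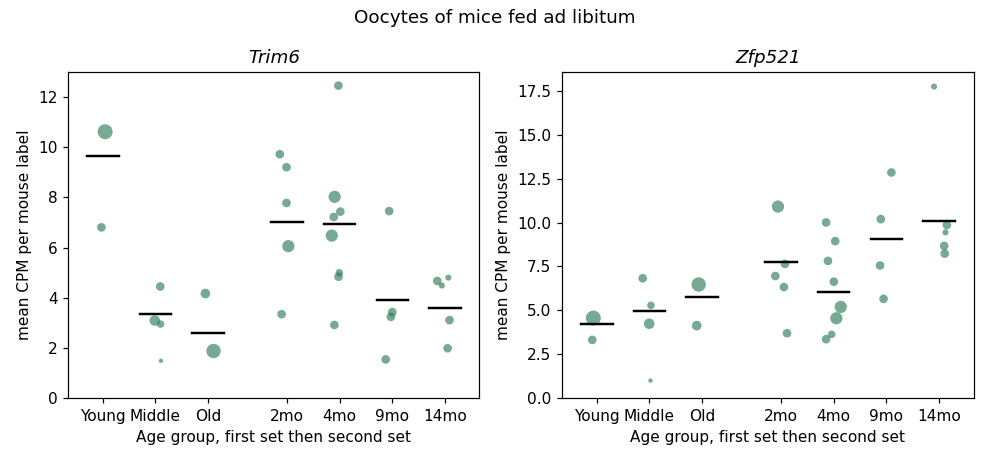
Mean CPM of Trim6 (left) and Zfp521 (right) per mouse label in oocytes of mice fed ad libitum, by age group of the first and the second set, with larger points for labels with more oocytes and black bars for the mean over oocytes. Trim6 means were 9.67 CPM in Young and 2.59 CPM in Old, and labels of neighbouring ages in the second set overlap.

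The second set also held mice fed ad libitum at 9 months, the age of the CR mice. Their 16 oocytes ranged from 0 to 2.85 CPM for Pax6, from 0.466 to 15.4 CPM for Trim6 and from 1.92 to 19.9 CPM for Zfp521. The CR oocytes of the first set lay between 9.60 and 25.8, 8.37 and 76.3, and 9.46 and 40.3 CPM. Pax6 thus had no oocyte in common between the ranges, while those of Trim6 and Zfp521 overlapped. The CR ranges come from the values that chose the members, and the share of genes that separate in this way is not given here.

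Hyperovulation did not move a member past the threshold in oocytes at 2 months, where 0.0299% of 23373 genes passed. Pax6 was 0.396 ± 0.429 CPM with hyperovulation (SD, n = 24) and 0.723 ± 0.862 CPM without it (SD, n = 32), a log2 fold change of -0.75 (95% interval -1.54 to 0.04, edgeR adjusted p = 0.729). Trim6 was 7.03 ± 5.39 with and 6.04 ± 7.60 CPM without it, a log2 fold change of 0.22 (-0.41 to 0.84, adjusted p = 0.935). Zfp521 was 7.74 ± 5.20 with and 6.39 ± 5.01 CPM without it, a log2 fold change of 0.28 (-0.22 to 0.79, adjusted p = 0.877). The oocytes of the injected and the uninjected mice overlapped for each gene.

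Cumulus cells around the same oocytes did not show the CR levels. Each cumulus library is a pool, in which fewer cells with a transcript and less RNA per cell cannot be told apart. In the 25 CR complexes with both libraries, the oocyte was higher than its cumulus cells in 25 of 25 for each gene. Pax6 had 0 counts in the cumulus cells of 19 of them, Zfp521 in 14 and Trim6 in 1. The CR oocyte levels chose the members, so the 25 of 25 is a description and no test. The share of all genes with the oocyte higher in every complex is not given here. Median levels in these complexes were 16.6 CPM in the oocyte against 0 in the cumulus cells for Pax6, 26.1 against 0 for Zfp521 and 32.7 against 6.64 for Trim6. Across the complexes, oocyte and cumulus levels had an r of -0.14 for Pax6, 0.17 for Trim6 and 0.14 for Zfp521.

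**Figure D3:**
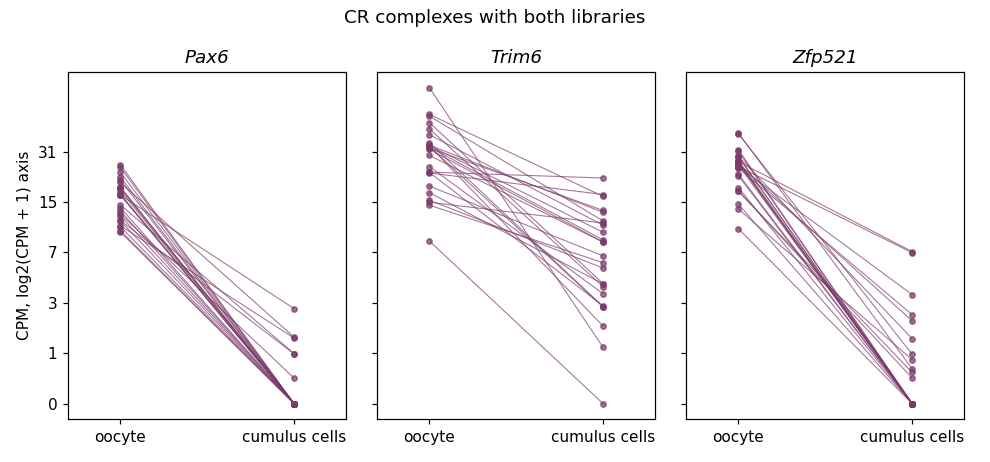
CPM of each member on a log2(CPM + 1) axis in the oocyte and the cumulus cells of the 25 CR complexes with both libraries, a line joining the 2 libraries of a complex. Every line falls from the oocyte to the cumulus cells, to 0 counts in 19 complexes for Pax6, 1 for Trim6 and 14 for Zfp521. The oocyte levels shown chose the members.

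Between CR and Middle cumulus cells, 0 of 3 members passed the threshold in edgeR (0 at an unadjusted p under 0.05) or in DESeq2, against 3.6% of 24657 genes. Pax6 was at 0.130 ± 0.503 CPM in Middle (SD, n = 15) and 0.322 ± 0.683 CPM in CR (SD, n = 25), a log2 fold change of 1.03 (95% interval -0.46 to 2.53, edgeR adjusted p = 0.524). Trim6 was at 10.4 ± 4.64 and 7.74 ± 5.44 CPM, a log2 fold change of -0.41 (-1.02 to 0.19, adjusted p = 0.531). Zfp521 was at 0.987 ± 2.10 and 1.08 ± 2.01 CPM, a log2 fold change of 0.13 (-1.35 to 1.6, adjusted p = 0.957). These are not set against the oocyte differences, which chose the members, and a difference in CR effect between the cell types was not tested.

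In cumulus cells, age and hyperovulation left the members below the threshold as well. From Young to Old, where 3.96% of genes passed, Trim6 was at 10.3 ± 3.33 and then 9.19 ± 2.58 CPM, differing by -0.21 on the log2 scale (95% interval -0.55 to 0.12, edgeR adjusted p = 0.571), and Zfp521, with a count in 3 of 15 Young and 2 of 16 Old libraries, by 1.44 (-0.21 to 3.10, adjusted p = 0.393). One Old library held 16 of the 20 Old Zfp521 counts, and DESeq2 gave -0.35. Pax6 had at most 3 counts in a library of either group, so no fold is given. In the second set, the share of genes that passed against 2 months was 0.519% at 4 months, 1.92% at 9 months and 1.7% at 14 months, and the members' log2 fold changes lay between -0.97 and 0.61 with adjusted p of 0.546 or more by edgeR. With hyperovulation against without it, where 13.2% of genes passed, Trim6 was at 10.1 ± 7.06 against 6.95 ± 4.69 CPM, a log2 fold change of 0.52 (-0.01 to 1.05, adjusted p = 0.208), Pax6 differed by 0.85 (adjusted p = 0.311) and Zfp521 by -1.02 (adjusted p = 0.251). The cumulus marker sum had a median of 12790 CPM with hyperovulation and 6203 CPM without it, and its part in these values was not tested.

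Oocyte and cumulus cells of the same complexes at 2 months in the second set gave the ordinary difference between the cell types, without restriction. Zfp521 was higher in oocytes, at 7.74 ± 5.20 against 0.699 ± 1.59 CPM (SD, n = 24 each), a log2 fold change of 3.59 (SE 0.42, edgeR adjusted p = 2.2e-11). Of 26662 genes, 88.4% passed the threshold here and 42.3% were higher in oocytes, so the call itself is common. Trim6 was at 7.03 ± 5.39 CPM in oocytes and 10.1 ± 7.06 CPM in cumulus cells, a log2 fold change of -0.14 (95% interval -0.74 to 0.46, adjusted p = 0.667). Pax6 was at 0.396 ± 0.429 and 0.813 ± 1.34 CPM, a log2 fold change of -0.64 (-1.59 to 0.30, adjusted p = 0.202). The oocyte mean CPM of Trim6 and Pax6 were thus below the cumulus means here, without passing the threshold. CPM are scaled to library totals, while the fold changes use the scaling of edgeR, so the 2 can differ in size. With each mouse label left out in turn the Trim6 log2 fold change ran from -0.28 to 0.26, so its direction is not settled. In the CR complexes the oocyte was the higher, but CR oocyte levels chose the members, so this contrast was not tested.

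Some Trim6 counts were fractions, because reads that map to several genes were shared among them. In CR oocytes 14.8% of the libraries with a Trim6 count held a value that was not whole, against 70.8% of the CR cumulus libraries, 18.2% of the Middle oocytes and 53.3% of the Middle cumulus libraries. The processed pseudogene Gm8667 overlaps Trim6 on the other strand and had at most 0.8 counts in a Middle or CR oocyte. The counting strand is not given in the sources used here, so reads of overlapping genes cannot be told apart. Pax6 values were not whole in 3.70% of the CR oocytes, and those of Zfp521 were whole in every group.

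Of the genes beside or overlapping the members, 1 passed the threshold in CR oocytes, and several had too few counts to show a difference. Elp4, next to Pax6 and encoding a subunit of the Elongator complex, was at 14.0 ± 3.15 CPM in Middle and 13.7 ± 3.38 CPM in CR, a log2 fold change of 0.01 (SE 0.11, edgeR adjusted p = 0.943). Paupar, a long non-coding RNA on its other side, had at most 7 counts in a library and differed by 0.13 (adjusted p = 0.893). Trim34a, 9305 bases from Trim6, had at most 3 counts in a library. Olfr650-ps1, a pseudogene of an olfactory receptor 10928 bases before Trim6, rose (12.6 ± 4.85 CPM in Middle, 17.6 ± 6.0 CPM in CR, log2 fold change 0.54, SE 0.17, adjusted p = 0.0109), as did 15.8% of all genes. Beside Zfp521, Gm5160 differed by -0.31 (adjusted p = 0.612) and Hrh4 had 1 count in all.

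Related genes were counted in 6 lists, without the members, between CR and Middle oocytes. Over all genes of this comparison 30% passed, 15.8% higher and 14.2% lower in CR, and the counts below are read against these shares. Of the other PAX genes tested, 1 of 4 rose, a share near that of all genes. It was Pax3, a factor of the neural crest and muscle, from 0.459 to 1.32 CPM (log2 fold change 1.48, SE 0.45, adjusted p = 0.00943, edgeR). In Middle oocytes a count of 0 allowed 1.14 to 1.58 CPM, above the Pax3 mean there, so the size of its rise is uncertain. Pax2 and Pax5 had higher levels than Pax6 in Middle oocytes and did not pass, at 22.3 ± 4.23 and 14.9 ± 6.66 CPM in Middle and 18.8 ± 4.57 and 11.6 ± 5.42 CPM in CR. The median log2 fold change of the 4 was -0.26. Of 9 eye and neural factors tested, 2 rose and 2 fell, with a median of -0.08. Those that rose were Mitf, the pigment cell factor (0.77, SE 0.10), and Eya1, a phosphatase and transcriptional co-factor (0.52, SE 0.08). Maf, a lens factor (-1.49, SE 0.41), and Lhx2, needed for the optic vesicle (-1.01, SE 0.15), fell.

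Of the 11 TRIM genes around Trim6 that were tested, 3 rose, with a median log2 fold change of 0.23, and none fell, a share near the 30% of all genes. These were Trim30a, at 5.82 ± 3.79 in Middle and 10.5 ± 4.06 CPM in CR (0.91, SE 0.21), Trim30d (0.87, SE 0.26) and Trim68 (0.76, SE 0.12). Trim30a and Trim30d belong to a family of close copies and shared reads, with counts that were not whole, so their values are uncertain. Of 13 TRIM6 partners and genes of type I interferon signalling, 2 rose and 2 fell, again near the share of all genes, with a median of -0.09. Ube2k, a ubiquitin-conjugating enzyme, rose by 0.38 (SE 0.05) and the kinase Jak1 by 0.19 (SE 0.05). Ifnar2, a chain of the interferon receptor (-2.12, SE 0.57), and Myc (-1.74, SE 0.61) fell, from 1.06 and 1.31 CPM in Middle to 0.185 and 0.367 CPM in CR. A count of 0 allowed 1.14 to 1.58 CPM in Middle oocytes and 0.661 to 1.09 CPM in CR oocytes. The means of Ifnar2 and Myc lay near or below these levels, so the size of both falls is uncertain. Ikbke was at 1.16 ± 0.990 and 0.538 ± 0.611 CPM and did not pass (adjusted p = 0.0703, edgeR).

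Zfp423, the nearest relative of Zfp521, was at 30.7 ± 6.70 CPM in Middle and 33 ± 6.56 CPM in CR, a log2 fold change of 0.15 (SE 0.11, edgeR adjusted p = 0.294). None of the 5 tested genes of its list, Zfp423 and Ebf1 to Ebf4, passed in edgeR, at an adjusted or an unadjusted p, or in DESeq2, with a median of -0.03, while 30% of all genes passed. Of 14 NuRD subunits, 4 rose and 3 fell, with a median of 0.00. Hdac2, a histone deacetylase, rose by 0.61 (SE 0.07) and the helicase Chd4 by 0.50 (SE 0.11), while Mbd2 and Mbd3 had log2 fold changes of -0.59 (SE 0.16) and -0.35 (SE 0.07). In cumulus cells, where 3.6% of all genes passed, 1 of the 13 interferon and partner genes tested did, Jak1, lower at -0.49 (SE 0.11). Of 13 NuRD subunits tested there 2 passed, Chd3 and Mta2, higher at 0.56 (SE 0.11) and 0.31 (SE 0.09), and in the other 4 lists, with 1, 5, 11 and 2 genes tested, none passed in edgeR, while 3 TRIM genes and 1 of the Zfp423 list had an unadjusted p under 0.05 and 1 TRIM gene passed in DESeq2.

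**Figure D4:**
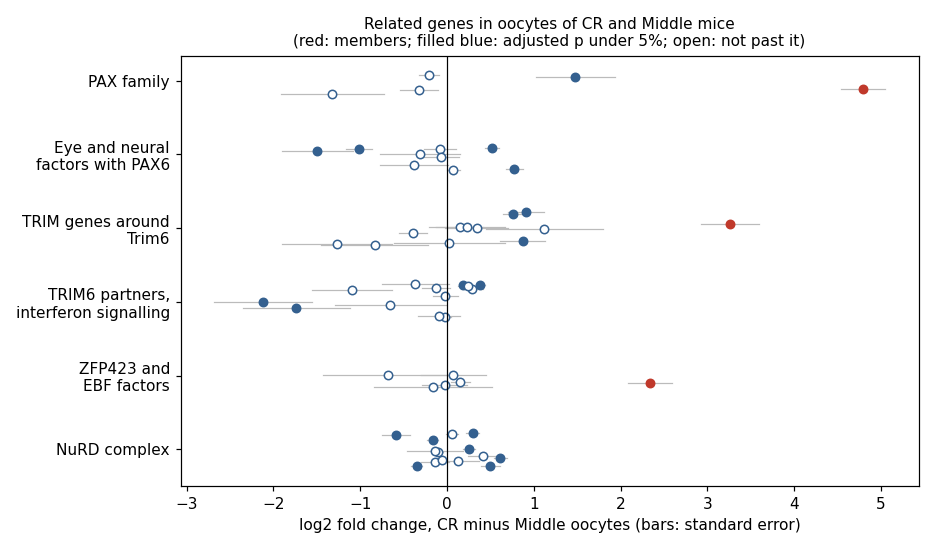
Log2 fold change between CR and Middle oocytes of the tested genes of the 6 lists, with standard errors, filled blue past the threshold and open where not, members in red. The place of the members, at 4.79, 3.26 and 2.34, follows from their choice by rise. The relatives lie on both sides of 0, up to Pax3 at 1.48, a rise of uncertain size.

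Genes listed as markers also differed between CR and Middle oocytes, where 30% of all genes passed. Of 14 cumulus and granulosa markers 2 rose, Kitl (1.05, SE 0.22) and Nr5a2 (0.31, SE 0.11), and 3 fell, Cyp11a1 (-4.16, SE 0.69), Star (-3.33, SE 0.56) and Foxl2 (-1.50, SE 0.52). The medians of Cyp11a1 were 2.59 CPM in Middle and 2.61 CPM in CR and those of Star 1.80 and 1.54 CPM, so these fitted falls rest on a few Middle libraries with high values. Of 14 oocyte markers 2 rose and 4 fell, led by Nlrp5, a maternal effect gene, at 0.73 (SE 0.17). Of 6 theca and stroma markers 4 fell and Pdgfra rose by 1.44 (SE 0.40), while the sum of the list had medians of 2.29 CPM in Middle and 3.53 CPM in CR, with a highest value of 58.6 CPM in Middle and 12.6 CPM in CR. Endothelial markers rose in 2 of 4 and immune markers in 1 of 3 tested, and none of the 4 red blood cell genes could be tested. Of the endothelial genes, Pecam1 and Tek had medians of 67.2 and 12.6 CPM in Middle and 86.2 and 24.9 CPM in CR oocytes. Their medians in CR cumulus cells were 1.07 and 0 CPM. Kdr was likewise higher in CR oocytes (4.74 CPM) than in CR cumulus cells (0), and Cdh5 lower (0 against 2.78 CPM). Whether other cells contributed to these levels was not tested. The cumulus cells themselves held less of each member than the CR oocytes, whose levels chose the members. In CR cumulus cells Pax6 and Zfp521 had medians of 0 CPM.

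The genes whose levels were most like those of the members over the 73 oocytes of the first set also rose in CR. Pax6 was closest to AC134468.1 (r = 0.910), Ddx3x (0.896) and Hspa4 (0.891). Trim6 was closest to Cdv3 and Cep350 (0.756 each) and AC134468.1 (0.753), and Zfp521 to Tmem183a (0.785), Cdv3 (0.778) and Wls (0.768). Over the 46 oocytes without CR these r values lay between 0.02 and 0.39, and over the 127 oocytes of the second set between -0.11 and 0.21. The likeness thus rested on the CR oocytes, which also chose the members.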

How the data were processed

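Reads were mapped by the authors with HISAT2 2.0.5 (GRCm38) after trimming, and featureCounts 1.5.1 assigned them to GENCODE genes, multi-mapped reads being shared. They deposited an expected count per gene and library (41092 genes in 146 libraries of the first set, 42349 in 255 of the second) and RPKM values. Of the nonzero counts 36.8% and 35.1% were not whole, so counts were rounded for tests. The deposited RPKM values were an alternative only (0.1 added).

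CPM are counts scaled to equal library totals. Groups were compared with edgeR 4.0.16 in R 4.3.3 (TMM, quasi-likelihood test, genes seen in at least 5 of the libraries compared, Benjamini-Hochberg over all genes, 5%). Intervals are 95% from the standard error. Alternatives were DESeq2 1.42.0, no filter, sums per mouse, each mouse left out, covariates, thinned CR counts, all libraries and a complex block. The scripts were tested on simulated data. No duplicates were found.

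Members and lists were chosen with earlier results of these data known. Named genes were the members, in each list up to 4 genes past the threshold with the largest change and at least 1 CPM, the 3 genes most like each member (at least 8 CPM) and neighbours. Others were named after their values were seen. Symbols and coordinates came from GENCODE vM21, where 43512 of 43633 identifiers matched, and promoters from RefSeq (GRCm38.p6), which matched 2 of 3 members. Protein sequences were not analysed here. Counting intervals cover counting error only.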

Additional observations from a re-analysis of the deposited data

How the results depend on the processing

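CR against Middle oocytes kept the direction for each member under every alternative run. These runs reuse the libraries that chose the members by rise, so a kept direction is no test of it. The log2 fold changes lay between 4.5 and 5.53 (Pax6), 3.16 and 3.47 (Trim6) and 2.17 and 2.58 (Zfp521) with each mouse left out in turn. From deposited RPKM with 0.1 added the Pax6 value was 3.29, since that constant exceeds the Middle level. The count of members past the threshold from Young to Old oocytes, 1, was 0 per mouse label and 0 with the cumulus marker covariate, and 0 to 1 with each mouse label left out. Elsewhere the sign turned, for values far from the threshold, as follows. With the start of the complex label (B1 or B2) as a covariate, Pax6 at 14 against 2 months in oocytes was -0.068. Summed per mouse label, Zfp521 in CR against Middle cumulus cells was -0.27 and Trim6 in oocytes against cumulus cells 0.063. DESeq2 gave -0.35 for Zfp521 in Old against Young cumulus cells. The cause of these was not tested.

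With each mouse label left out in turn, the log2 fold changes that changed sign ran as follows. In oocytes, Old against Young gave -0.45 to 0.46 for Pax6 and -0.031 to 0.68 for Zfp521. At 4 against 2 months Trim6 gave -0.17 to 0.10, at 9 against 2 months Zfp521 -0.0011 to 0.55, at 14 against 2 months Pax6 -0.57 to 0.37, and for hyperovulation Zfp521 -0.058 to 0.42. In cumulus cells, CR against Middle gave -1.10 to 0.61 for Zfp521. At 4 against 2 months Pax6 gave -0.17 to 0.60, Trim6 -0.29 to 0.043 and Zfp521 -0.80 to 0.20, at 9 against 2 months Pax6 -0.63 to 0.14, and at 14 against 2 months Pax6 -0.89 to 0.22. Oocytes against cumulus cells gave -0.28 to 0.26 for Trim6.

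With the complex as a block, Zfp521 was 3.51 higher in oocytes than in the paired cumulus cells at 2 months (edgeR adjusted p = 1.03e-10), and no call of a member changed. Counts of all genes past the threshold depended on the unit. Between CR and Middle oocytes there were 7583 over libraries and 2151 over sums per mouse, and between Young and Old oocytes 1707 over libraries, 2808 with DESeq2, 18 with the cumulus marker covariate, 0 per mouse label, 0 without Old1_2, 6 without Young1, 0 without Young2 and 4141 without Old3. In the second set's oocytes, the counts of 3, 36, 258 and 7 (at 4, 9 and 14 against 2 months and for hyperovulation) were 6, 106, 400 and 12 with DESeq2, 0, 23, 50 and 0 per mouse label, and 0 to 10, 23 to 47, 84 to 410 and 1 to 6 with each mouse left out. The cumulus marker covariate gave 5 at 4 months and 52 at 14 months. In cumulus cells, the counts of 887 (CR against Middle), 914 (Old against Young), 129, 441 and 388 (at 4, 9 and 14 against 2 months) and 3181 (hyperovulation) were 0, 81, 0, 2, 30 and 230 per mouse label, and 304 to 1267, 41 to 686, 3 to 380, 157 to 743, 210 to 445 and 1516 to 3664 with each mouse left out. With no filter the count at 4 months was 78.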
